A study of Homo sapiens with 6 samples.

Results

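The genes described here are 35 genes of glycolysis and of the response to low oxygen, out of 58735 genes in the table. They were chosen by name, with earlier results of these data known. The 35 are 17 glycolytic enzymes, 7 enzymes that switch the flux of glycolysis and pyruvate, the 2 alpha subunits of the hypoxia-inducible factor (HIF), and 9 HIF targets that are not glycolytic enzymes. All 35 were found by gene symbol.

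Glycolysis splits glucose into pyruvate through a chain of cytosolic enzymes, and lactate dehydrogenase turns pyruvate into lactate. HIF is a pair of an alpha and a beta subunit. In normal oxygen, prolyl hydroxylases mark the alpha subunit, the VHL complex then tags it for destruction, and in low oxygen it persists and binds a short DNA motif, the hypoxia response element. Many glycolytic genes and many genes of angiogenesis, pH control and mitophagy carry this element and are classical HIF targets. Tumor cells of many origins run glycolysis also in oxygen.

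The cells were TPC-1, a line of human papillary thyroid carcinoma. The 3 control libraries came from wild strain TPC-1, which had not been infected, and the 3 others from *RRM2*-OE-TPC-1, the same line infected with lentivirus made from vector LV18, in which a CMV promoter drives *RRM2*, and selected with puromycin. *RRM2* is the small subunit of ribonucleotide reductase, which makes deoxynucleotides. The methods give the same medium for all cells and mention no hypoxia. Whether the infected cells were a pool or a clone is not given, and without an empty vector among these libraries the effects of *RRM2*, the virus and the selection cannot be told apart. The genotype given for *RRM2*-OE replicates 2 and 3 names RRM3 and RRM4, while the sample titles say *RRM2*.

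Each value is an FPKM, which is a read count divided by gene length and by a depth factor, so that levels of different genes may be compared. The depth factors recovered from the values followed median-of-ratios factors, which align the typical gene between libraries (ratios of 0.999 to 1.001 after scaling to a common mean). They followed the total of reads on genes less closely, with ratios of 1.031 to 1.053 in TPC-1 and 0.997 to 1.010 in *RRM2*-OE-TPC-1. Log2 fold changes are therefore slightly higher than with scaling to library totals. The median of the glycolytic enzymes, for example, was 0.44 as deposited and 0.38 with library totals. Depth ranged from 14317091 to 17084067 reads on genes. *RRM2* rose from 8.92 ± 0.346 FPKM to 48.4 ± 1.78 FPKM (SD, n = 3). Its log2 fold change was 2.43 (SE 0.0442, limma, adjusted p = 1.11e-08). Of 6 markers of thyroid follicular cells, 2 (*PAX8* and *FOXE1*) were above 0.5 FPKM in all 6 libraries and *NKX2-1* was at 0 in all. Both were lower in *RRM2*-OE-TPC-1 (log2 fold changes of -0.24 and -0.42), and the summed level of the 6 was 71.5 to 75.3 FPKM in TPC-1 and 59.7 to 63.1 FPKM in the infected line. The summed level of 6 epithelial markers, of which 3 were above 0.5 FPKM in all libraries, was 42.9 to 47.1 FPKM in TPC-1 and 88.4 to 90.8 FPKM in *RRM2*-OE-TPC-1, nearly all of it from *KRT18* (log2 fold change 1.05), while *KRT8* rose by less (0.43) and *KRT7* did not pass (-0.21). Summed levels of fibroblast markers were 2.69 to 3.09 and 2.79 to 2.96 FPKM (1 of 5 above 0.5 FPKM in all libraries, 2 at 0), and those of immune markers 0.349 to 0.410 and 0.107 to 0.183 FPKM (0 of 5, 3 at 0). For 4 endothelial markers they were 0.873 to 1.05 and 0.0667 to 0.115 FPKM (0 of 4, 1 at 0). The part of these markers in the results below was not tested. In bulk RNA, fewer cells of a type and less RNA per cell cannot be told apart.

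The core of the hypoxia response element is ACGTG or GCGTG. Promoter windows from RefSeq (GRCh38.p14), 250 bases before to 50 bases after a start site, were found for 32 of the 35 genes, in 57 windows, and *PFKFB2*, *VEGFA* and *NDRG1* had none. The core was searched on both strands, where it reads CACGT or CACGC on the other strand, and the palindrome CACGTG counts as 2 overlapping matches. At least 1 window held the core in 29 of the 32 genes, in 16 of 17 glycolytic enzymes and in 6 of 7 non-glycolytic HIF targets. Among all genes of that reference it was held by 52.44%, and among the 9521 tested genes with a window by 71.1%. Of the 57 windows 64.91% held it, against 61.35% of the 13885 windows of tested genes, which have many CpG sites as these do (median 26 per window, and 28 in the 57). The core is thus common in promoters, and a match is a description and not a site. The stretches below come from genes that rose (*PGK1*, *LDHA*, *BNIP3*), from *CA12*, which fell most, and from *ANKRD37*, which missed the threshold. The first 3 are cut off where the first annotated exon inside the 250 bases begins, and the last 2 are 30 bases around the matches. Capitals mark the core, and all are written 5′ to 3′ on the strand of the gene.
PGK1, chrX:78103998-78104173, plus strand: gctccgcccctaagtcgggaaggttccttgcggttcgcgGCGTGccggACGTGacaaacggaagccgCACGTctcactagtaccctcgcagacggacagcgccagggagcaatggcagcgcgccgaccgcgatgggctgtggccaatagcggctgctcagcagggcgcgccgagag
LDHA, chr11:18394313-18394387, plus strand: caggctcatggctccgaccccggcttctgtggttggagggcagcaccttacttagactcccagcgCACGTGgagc
BNIP3, chr10:131982014-131982173, minus strand: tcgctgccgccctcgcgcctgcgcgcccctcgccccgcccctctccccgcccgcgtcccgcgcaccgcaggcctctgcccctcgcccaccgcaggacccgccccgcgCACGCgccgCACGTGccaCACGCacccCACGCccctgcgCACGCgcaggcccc
CA12, chr15:63382064-63382093, minus strand: ggcggatctcaccCACGCctgccagcagct
ANKRD37, chr4:185396676-185396705, plus strand: ctcCACGTGccagtgtttgtgtACGTGcgg

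In these stretches *PGK1* held 3 matches, the first starting 211 bases before the start site, and *BNIP3* held 6 between 143 and 104 bases before it. *LDHA* held 2 in the stretch shown and 5 in its 250 bases. *CA12* held a single match, 234 bases before the start site, and *ANKRD37* held 3. The genes shown are chosen examples, each by its window with the most matches, so they cannot relate matches to changes. Of the genes with a window, *PGAM1*, which rose, and *PDK4* and *EGLN3*, which were not tested, held no match.

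Changes were tested for 13621 genes with limma on log2(FPKM + 0.1), and p was adjusted over all of them. A gene passed the test when its adjusted p was at most 0.05, and was called differentially expressed if its log2 fold change was also 1 or more in size. The groups differed widely: 67.6% of tested genes passed the test, 34.9% upwards in *RRM2*-OE-TPC-1 and 32.7% downwards, and 11.5% were called, 4.48% higher and 6.97% lower. The libraries of the groups did not overlap for 72.2%. The median log2 fold change over all tested genes was 0.011 and the quartiles were -0.37 and 0.36. Genes entered the test if 3 or more libraries reached 0.5 FPKM and 10 recovered reads, which 31 of the 35 did (*ANKRD37* through TPC-1 and *RRM2*-OE replicate 1 alone). Among them 18 rose and 5 fell, 2 were called (*VEGFA* and *CA12*, both lower), and the groups did not overlap for 24. A share of 23 in 31 past the test is read against the 67.6% above.

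**Figure D1:**
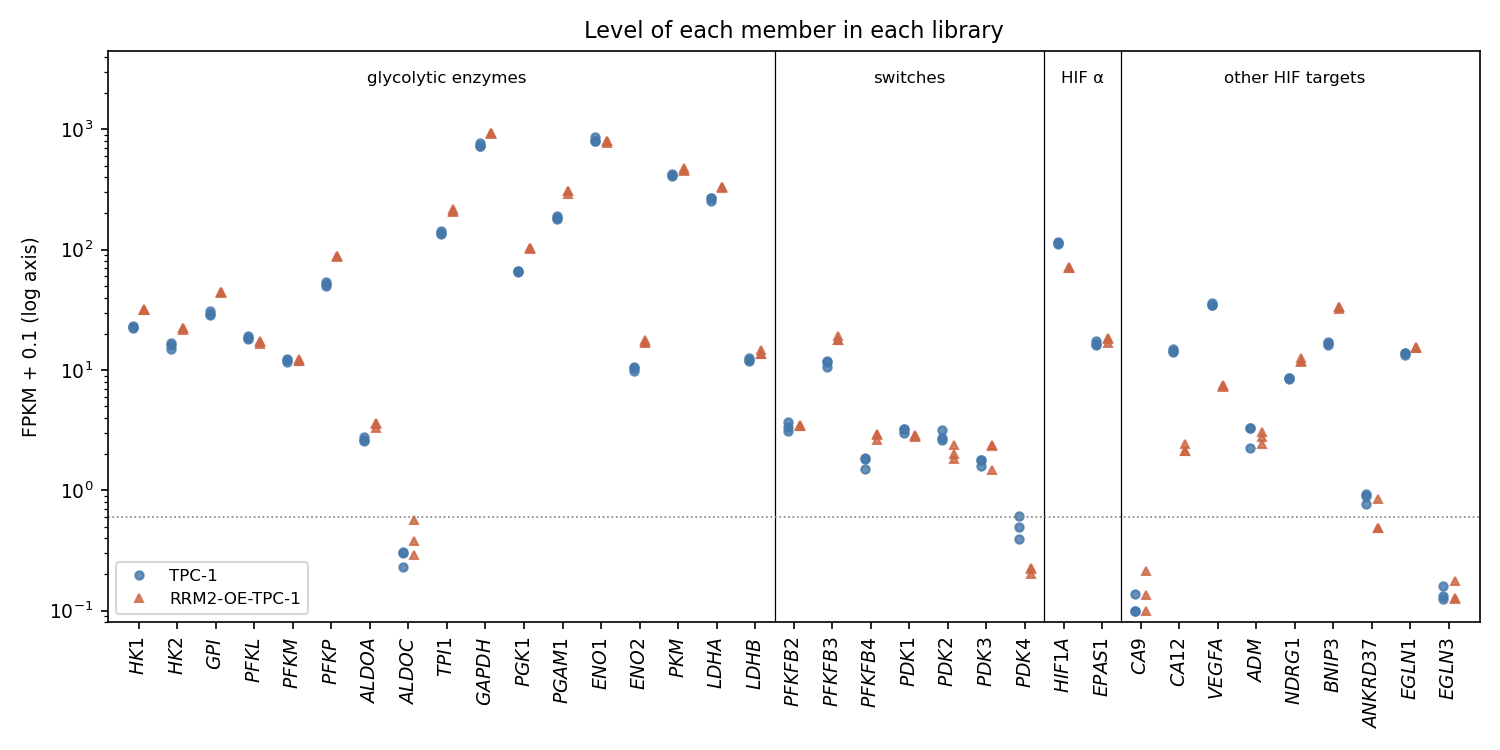
FPKM + 0.1 of each of the 35 genes on a log axis, by gene along the horizontal axis, with 1 point per library (circles TPC-1, triangles *RRM2*-OE-TPC-1, n = 3 each). The dotted line marks 0.5 FPKM, below which all libraries of *ALDOC*, *CA9* and *EGLN3* lie. *VEGFA* and *CA12* show the widest gaps between groups, and most enzymes from *HK1* to *LDHB* sit slightly higher in *RRM2*-OE-TPC-1.

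The glycolytic enzymes were higher in *RRM2*-OE-TPC-1 by small, well resolved steps. Of 17 enzymes 16 were tested, 13 rose, 1 fell and 2 did not pass, and none reached a log2 fold change of 1. Among all tested genes 34.9% rose and 32.7% fell. The median of the enzymes was 0.44 with a range from -0.13 to 0.75. At least 1 enzyme rose at every step from hexokinase to lactate dehydrogenase, and the fall was that of *PFKL*. This does not mean that every step rose as a whole. At enolase the enzyme that rose, *ENO2*, made up 1.23% of the summed FPKM of *ENO1* and *ENO2* in TPC-1, and *ENO1* did not pass. At aldolase it was *ALDOA*, whose level is uncertain, and the further hexokinase *HKDC1* fell. The groups did not overlap for 14 of the 16, beside 72.2% of all tested genes. Together the 17 enzymes took 1.48% ± 0.0181 of the reads on genes in TPC-1 against 1.65% ± 0.0101 in *RRM2*-OE-TPC-1 (SD, n = 3).

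Hexokinases trap glucose in the cell as its phosphate, and *HK1* and *HK2* both rose. *HK1*, the form that most cells use, measured 23.1, 22.3 and 22.8 FPKM in TPC-1 replicates 1 to 3 and 31.5, 32.1 and 31.7 FPKM in *RRM2*-OE-TPC-1, a log2 fold change of 0.48 (SE 0.0320, adjusted p = 4.97e-06). *HK2*, the inducible form of many tumors, measured 15.9, 14.8 and 16.6 FPKM against 22.2, 21.4 and 22.4 FPKM, again a log2 fold change of 0.48 (SE 0.0497, adjusted p = 6.00e-05). Their balance overlapped between the groups, with *HK2* at 40.9% ± 1.18 of their summed FPKM in TPC-1 against 40.9% ± 0.778 in *RRM2*-OE-TPC-1 (SD, n = 3). A further hexokinase, *HKDC1*, is not in that sum and was named after its values were seen. *HKDC1* was above *HK1* and *HK2* in both groups and fell from 43.3 ± 1.16 to 34.5 ± 1.03 FPKM (log2 fold change -0.33, limma, adjusted p = 9.97e-05). *GPI*, which isomerizes glucose 6-phosphate, rose from 29.5 ± 1.09 to 44.3 ± 0.513 FPKM (SD, n = 3), a log2 fold change of 0.58 (SE 0.0364, adjusted p = 3.48e-06).

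Phosphofructokinase, the committed step, is a tetramer built from 3 kinds of subunit. The platelet form rose, the liver form fell slightly and the muscle form did not pass the test. *PFKP* (ENSG00000067057, chromosome 10 from 3066333 to 3137712 of GRCh38) measured 54.0, 49.9 and 52.0 FPKM in TPC-1 and 87.7, 86.3 and 88.2 FPKM in *RRM2*-OE-TPC-1. Every *RRM2*-OE library was above every TPC-1 library, and the log2 fold change of 0.75 (SE 0.0368, adjusted p = 1.06e-06) was the largest among the enzymes. *PFKL*, the liver form, fell from 18.4 ± 0.518 to 16.8 ± 0.483 FPKM, a log2 fold change of -0.13 (SE 0.0400, adjusted p = 0.0224). *PFKL* no longer passed the test when TPC-1 replicate 2 (-0.11, adjusted p = 0.0685) or *RRM2*-OE replicate 3 (-0.10, adjusted p = 0.0829) was left out. For *PFKM*, the muscle form, the values were 11.98 ± 0.379 and 11.9 ± 0.217 FPKM, and the interval of the log2 fold change ran from -0.11 to 0.09 (adjusted p = 0.866). *PFKP* made up 63.1% ± 0.903 of the summed FPKM of the 3 subunits in TPC-1 against 75.3% ± 0.630 in *RRM2*-OE-TPC-1, *PFKL* 22.3% ± 1.03 and 14.5% ± 0.450, and *PFKM* 14.6% ± 0.180 and 10.3% ± 0.218 (SD, n = 3). These shares are given without a test, since 3 libraries against 3 cannot give an exact permutation p under 0.1.

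The plot of isozyme shares by library sets the steps with more than 1 enzyme side by side.

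**Figure D2:**
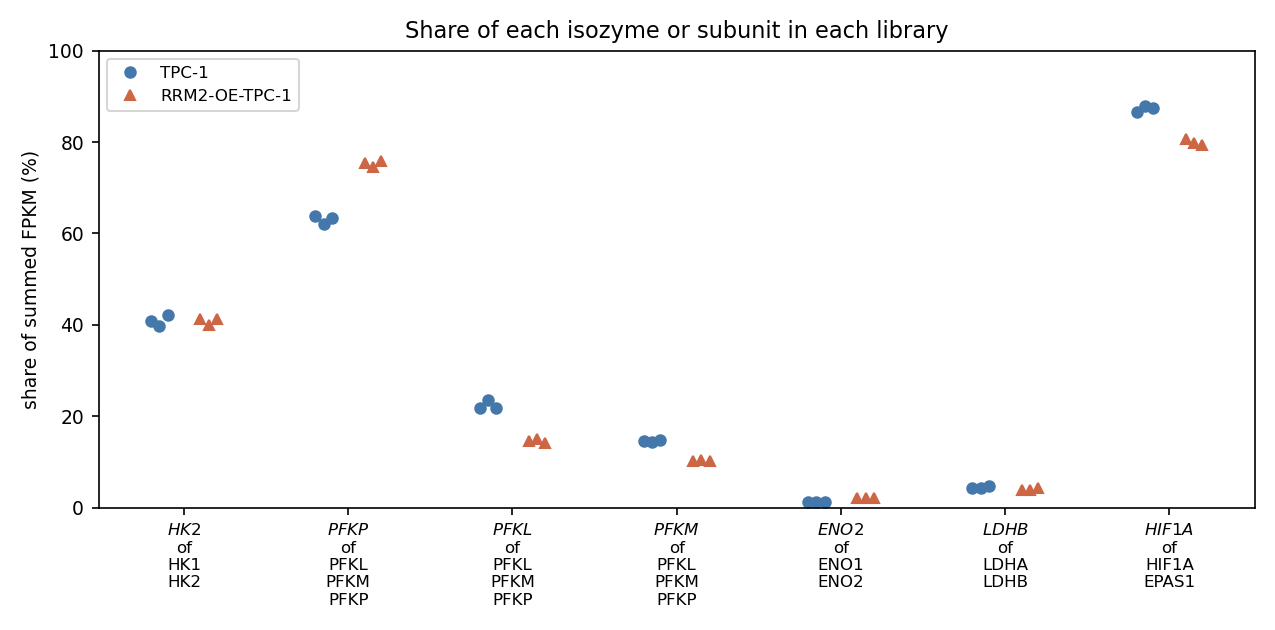
Share of each isozyme or subunit in the summed FPKM of its family, in percent, for each library (circles TPC-1, triangles *RRM2*-OE-TPC-1, n = 3 each). Only forms among the genes described here are summed, which leaves out *HKDC1* and *ENO3*. *PFKP* moved from 63.1% to 75.3% on average and *HIF1A* from 87.3% to 80.0%, while the shares of *HK2* overlap between the groups.

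Aldolase cleaves the 6-carbon sugar. *ALDOA*, the main form in most tissues, was listed at only 2.51, 2.49 and 2.66 FPKM in TPC-1 and 3.46, 3.18 and 3.53 FPKM in *RRM2*-OE-TPC-1. The log2 fold change was 0.39 (SE 0.0757, adjusted p = 0.00196), but the level is uncertain, because 42.3% of the exonic bases of *ALDOA* are shared with *AC093512.2* on the same strand (mean 0.537 FPKM) and how shared reads were counted is not given. *ALDOC*, the brain form, stayed below 0.5 FPKM and was not tested: 10, 10 and 6 reads were recovered in TPC-1 and 8, 14 and 22 in *RRM2*-OE-TPC-1. *TPI1*, which interconverts the resulting 3-carbon sugars, measured 144, 137 and 136 FPKM in TPC-1 against 218, 205 and 208 FPKM, a log2 fold change of 0.60 (SE 0.0391, adjusted p = 4.39e-06).

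The payoff steps held the most abundant transcripts of the 35. *GAPDH*, which oxidizes glyceraldehyde 3-phosphate and is often used as a reference gene, measured 777, 728 and 732 FPKM in TPC-1 and 914, 931 and 926 FPKM in *RRM2*-OE-TPC-1. It rose by a log2 fold change of 0.31 (SE 0.0453, adjusted p = 0.000425), or 1.24-fold (95% interval 1.15 to 1.33), with no overlap between groups. It ranked 25 among all genes by mean FPKM in TPC-1 against 21 in *RRM2*-OE-TPC-1. *PGK1* (ENSG00000102144, chromosome X from 77910739 to 78129296), which makes the first ATP of the pathway and whose promoter stretch is printed above, measured 66.6, 64.6 and 66.4 FPKM against 102, 103 and 103 FPKM. Its log2 fold change was 0.64 (SE 0.0293, adjusted p = 7.94e-07). *PGAM1*, a phosphoglycerate mutase, measured 178, 190.5 and 182 FPKM against 306, 293 and 306 FPKM, a log2 fold change of 0.71 (SE 0.0393, adjusted p = 1.84e-06). Both genes were among those that rose most in the pathway.

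Of the enolases *ENO1* and *ENO2*, the minor form rose and the major form did not pass the test, and the difference between them was not tested. *ENO1*, the ubiquitous form and the most abundant of the 35 in TPC-1, measured 867, 804 and 806 FPKM in TPC-1 and 774, 805 and 797 FPKM in *RRM2*-OE-TPC-1. The groups overlap, and the log2 fold change of -0.06 had an interval of -0.17 to 0.05 (adjusted p = 0.303), while the interval of *PGAM1* began at 0.62. *ENO1* passed the test as lower with scaling to library totals (-0.12, adjusted p = 0.0359) and with voom on recovered reads (-0.08, adjusted p = 0.00900). *ENO2*, the neuronal form, rose from 10.2 ± 0.390 to 17.2 ± 0.577 FPKM, a log2 fold change of 0.74 (SE 0.0459, adjusted p = 3.28e-06). It remained a small share of the summed FPKM of *ENO1* and *ENO2*, 1.23% ± 0.0944 in TPC-1 against 2.12% ± 0.0775 in *RRM2*-OE-TPC-1 (SD, n = 3). A further enolase, *ENO3*, named after its values were seen, fell from 2.01 ± 0.120 to 1.26 ± 0.0645 FPKM (log2 fold change -0.63, limma, adjusted p = 0.000642).

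Pyruvate kinase and lactate dehydrogenase end the pathway, and both rose slightly. *PKM*, which yields pyruvate, measured 416, 409 and 422 FPKM against 478, 449 and 455 FPKM, a log2 fold change of 0.15 (SE 0.0400, adjusted p = 0.0111). With scaling to library totals it no longer passed (0.09, adjusted p = 0.0804). *LDHA*, which favors lactate, measured 270.0, 271 and 254 FPKM against 326, 334 and 334 FPKM, a log2 fold change of 0.32 (SE 0.0388, adjusted p = 0.000141). *LDHB*, which favors the reverse reaction, went from 12.1 ± 0.426 to 13.9 ± 0.687 FPKM with a log2 fold change of 0.20 (SE 0.0497, adjusted p = 0.00821), and its share of the summed FPKM of both was 4.37% ± 0.299 and 4.02% ± 0.165 (SD, n = 3). Of the exonic bases of *LDHB* 33.4% are shared with *AC010197.2* on the same strand, so that its level is uncertain.

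Near-identical processed copies exist for several of these enzymes. The table names 62 pseudogenes of *GAPDH* with a summed mean of 3.98 FPKM, 4 of *TPI1* with 5.20 FPKM and 13 of *PGAM1* with 0.891 FPKM, each small beside its parent gene. *TPI1*, *ENO2* and *GAPDH* lie close together on chromosome 12, between 6533927 and 6923698. Their neighbors, looked up after the values were seen, did not share the direction: the 40 tested genes within 1 Mb of *TPI1* had a median log2 fold change of -0.34, with 14 of them above 0, and the 41 around *GAPDH* a median of -0.26, with 15 above 0. Around *PFKP* only 2 genes were tested, and both were above 0 with a median of 0.72. For some genes the neighbors did lie on the same side. The 12 tested around *LDHA* had a median of 0.41 and the 12 around *PFKFB3* a median of 0.19, each with 9 above 0. The 8 around *HIF1A*, which fell, had a median of -0.27, with 2 above 0.

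**Figure D3:**
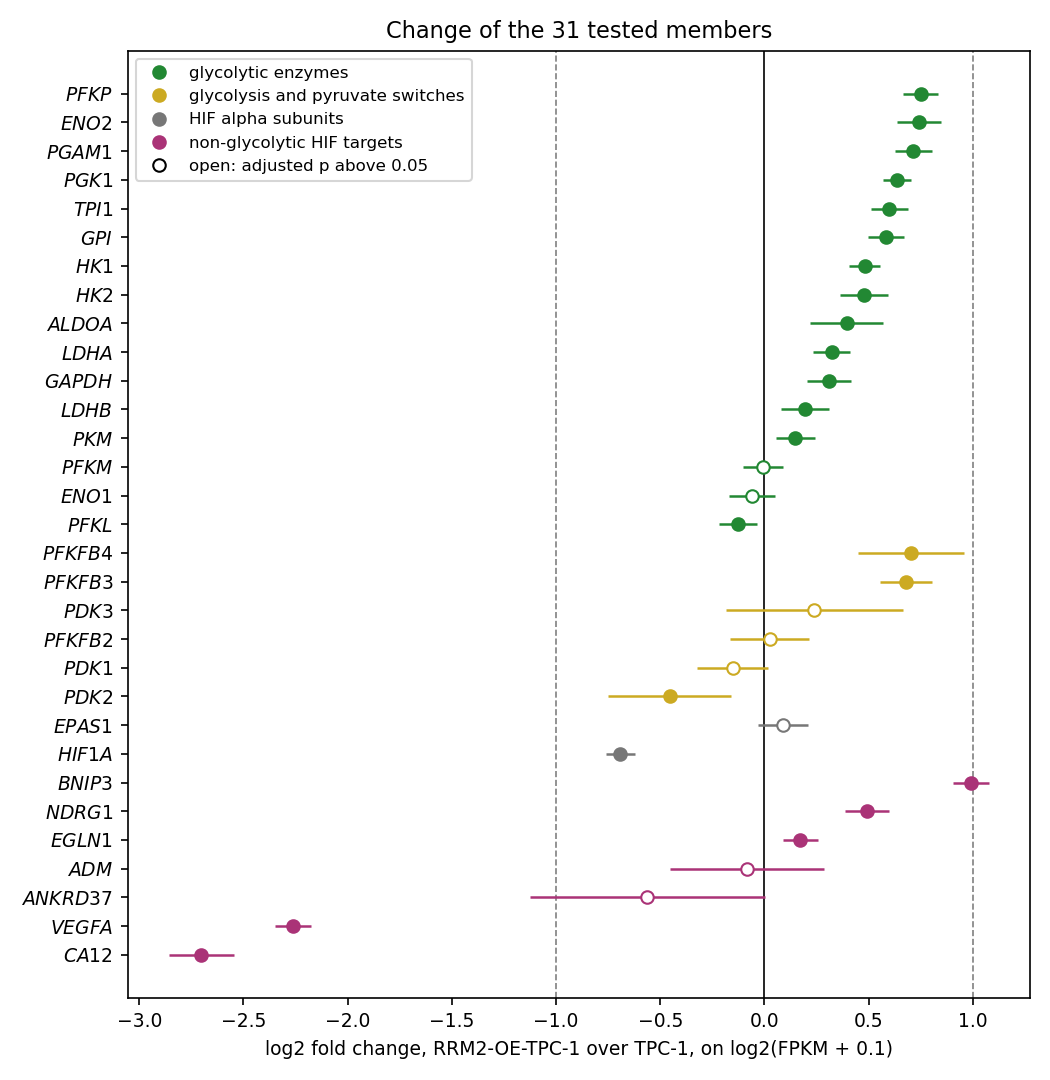
Log2 fold change of *RRM2*-OE-TPC-1 over TPC-1 on log2(FPKM + 0.1) for the 31 tested genes, with 95% intervals from limma (n = 3 per group). Open circles did not pass the test, and dashed lines mark a log2 fold change of 1 in either direction. The enzymes lie between -0.13 and 0.75, and the non-glycolytic HIF targets between -2.70 and 0.99.

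Among the switches *PFKFB3* and *PFKFB4* rose and *PDK2* fell. Of 7 genes 6 were tested, 2 rose, 1 fell, 3 did not pass and none was called, beside 34.9% of all tested genes that rose and 32.7% that fell. The PFKFB enzymes make and degrade fructose 2,6-bisphosphate, the strongest activator of phosphofructokinase. *PFKFB3*, whose kinase activity far exceeds its phosphatase activity, measured 11.5, 10.6 and 11.8 FPKM in TPC-1 and 19.0, 17.7 and 17.7 FPKM in *RRM2*-OE-TPC-1, a log2 fold change of 0.68 (SE 0.0540, adjusted p = 1.30e-05). *PFKFB4* measured 1.73, 1.77 and 1.41 FPKM against 2.82, 2.52 and 2.80 FPKM, a log2 fold change of 0.70 (SE 0.110, adjusted p = 0.000637). Of its exonic bases 4.73% are shared with *UCN2* on the same strand. *PFKFB2*, the heart form, measured 3.29 ± 0.308 and 3.35 ± 0.0522 FPKM, and the interval of its log2 fold change ran from -0.16 to 0.22 (adjusted p = 0.792).

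The PDK enzymes phosphorylate and inactivate pyruvate dehydrogenase, and so hold pyruvate back from the citrate cycle. *PDK1*, a classical HIF target, measured 2.87, 3.15 and 3.13 FPKM in TPC-1 and 2.80, 2.71 and 2.69 FPKM in *RRM2*-OE-TPC-1. All *RRM2*-OE libraries were below all TPC-1 libraries, but the log2 fold change of -0.15 (SE 0.0735) did not pass (adjusted p = 0.0979). *PDK1* passed as lower with scaling to library totals (-0.21, adjusted p = 0.0418) and with voom on recovered reads (-0.18, adjusted p = 0.0114). *PDK2* measured 2.60, 2.51 and 3.08 FPKM against 1.70, 1.92 and 2.29 FPKM and fell by 0.45 on the log2 scale (SE 0.128, adjusted p = 0.0134). Since 38.6% of its exonic bases lie opposite *SAMD14* (mean 1.08 FPKM) and the strand setting of the counting is not given, its level is uncertain. *PDK3* measured 1.68, 1.67 and 1.48 FPKM against 2.22, 2.29 and 1.38 FPKM, with *RRM2*-OE replicate 3 below all TPC-1 libraries (log2 fold change 0.24, SE 0.184, adjusted p = 0.277). Without that library the log2 fold change was 0.46 (adjusted p = 0.00839).

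*PDK4*, which is induced by fasting and fatty acids, was below the FPKM minimum and was not tested. It had 22, 30 and 37 recovered reads in TPC-1 and 8, 8 and 9 in *RRM2*-OE-TPC-1, or 0.400 ± 0.111 and 0.117 ± 0.0118 FPKM (SD, n = 3). With no filter on low values its log2 fold change was -1.18 (adjusted p = 0.0264), which would make it the only switch to be called.

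Of the 2 HIF alpha subunits, *HIF1A* fell and *EPAS1* did not pass the test. *HIF1A* (ENSG00000100644, chromosome 14 from 61695513 to 61748259) measured 112, 116 and 114 FPKM in TPC-1 and 69.7, 71.1 and 71.0 FPKM in *RRM2*-OE-TPC-1. The groups were far apart relative to their spread, and the log2 fold change was -0.69 (SE 0.0303, adjusted p = 6.27e-07), or 0.619 times the TPC-1 level (95% interval 0.590 to 0.650). Its rank by mean FPKM moved from 242 to 500. *EPAS1*, which encodes HIF-2 alpha, measured 17.3, 16.1 and 16.4 FPKM against 16.6, 17.9 and 18.5 FPKM, and the log2 fold change of 0.09 did not pass (interval -0.03 to 0.21, adjusted p = 0.162). Without *RRM2*-OE replicate 1 it passed as higher (0.13, adjusted p = 0.0417). *HIF1A* made up 87.3% ± 0.622 of their summed FPKM in TPC-1 against 80.0% ± 0.729 in *RRM2*-OE-TPC-1 (SD, n = 3). HIF-1 alpha is controlled mainly by protein stability, and no protein was measured in these libraries.

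The 9 non-glycolytic HIF targets did not move together. Of 7 tested, 3 rose (*BNIP3*, *NDRG1*, *EGLN1*), 2 fell (*VEGFA*, *CA12*), and *ADM* and *ANKRD37* did not pass. Such a mix is common here, since 34.9% of all tested genes rose and 32.7% fell. The median log2 fold change of the 7 was -0.08, which is the value of *ADM*. Their range from -2.70 to 0.99 was several times that of the enzymes.

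The falls were those of an angiogenic factor and a pH regulator. *VEGFA* (ENSG00000112715, chromosome 6 from 43770184 to 43786487), the main growth factor for blood vessels, measured 34.6, 34.6 and 35.8 FPKM in TPC-1 and 7.35, 7.07 and 7.22 FPKM in *RRM2*-OE-TPC-1. No library of either group came near the other group, and the log2 fold change was -2.26 (SE 0.0371, adjusted p = 9.81e-09), to 0.209 times the TPC-1 level (95% interval 0.196 to 0.221). Its rank by mean FPKM moved from 1039 to 5707, and 110 of the tested genes had a lower log2 fold change. *CA12* (ENSG00000074410, chromosome 15 from 63321378 to 63382161), a carbonic anhydrase of the cell surface, measured 14.3, 14.7 and 14.03 FPKM against 2.02, 2.03 and 2.33 FPKM. The log2 fold change was -2.70 (SE 0.0675, adjusted p = 4.92e-08), to 0.154 times the TPC-1 level (95% interval 0.138 to 0.171), and 55 of the tested genes had a lower one. The tested neighbors of both genes within 1 Mb, again looked up afterwards, had medians of 0.14 (39 genes around *VEGFA*) and 0.13 (14 around *CA12*).

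**Figure D4:**
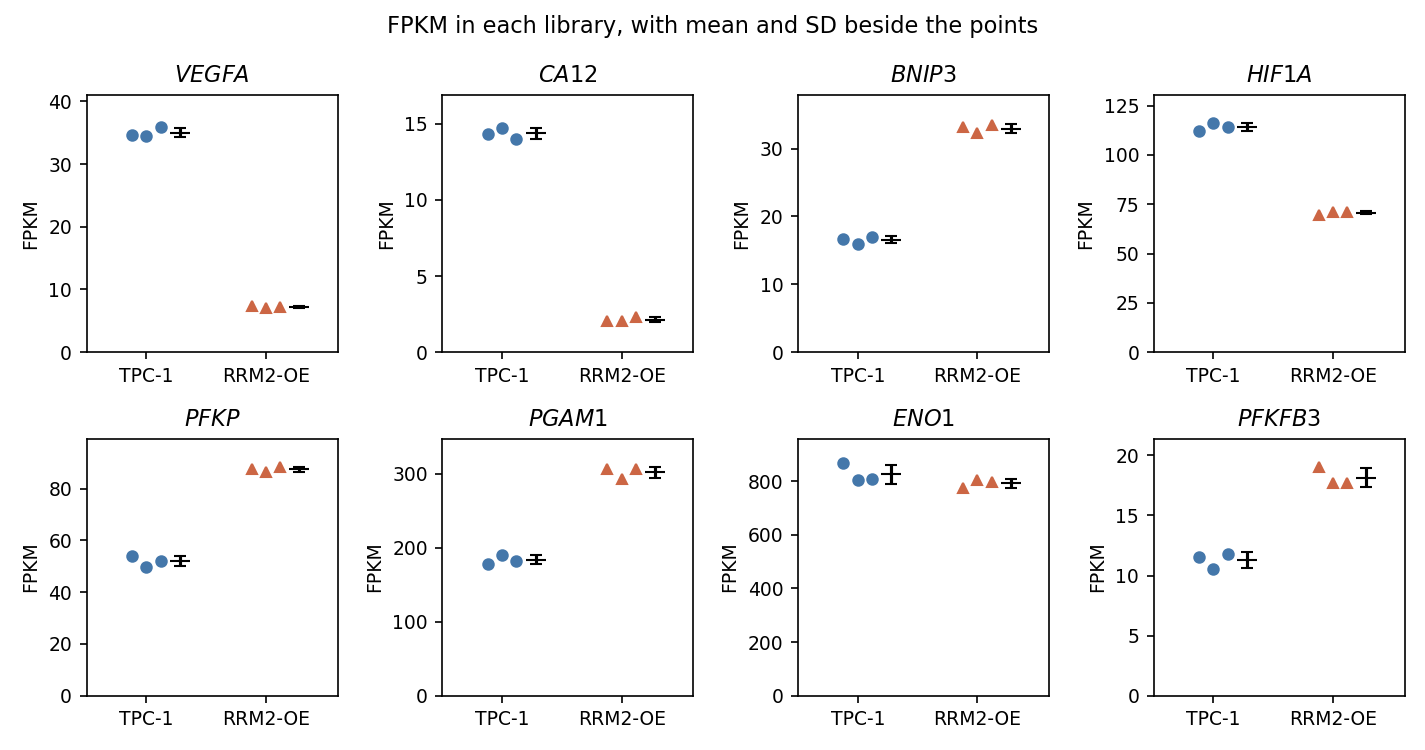
FPKM in each library for 8 of the genes (circles TPC-1, triangles *RRM2*-OE-TPC-1), with the mean and SD (n = 3) beside the points and every vertical axis starting at 0. *VEGFA* went from 34.99 to 7.22 FPKM and *CA12* from 14.4 to 2.13 FPKM on average, *BNIP3* from 16.5 to 32.9 FPKM, and for *ENO1* the libraries of the groups overlap.

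*BNIP3*, a mitophagy receptor of the outer mitochondrial membrane, changed most among the genes that rose. It measured 16.6, 16.0 and 17.03 FPKM in TPC-1 and 33.1, 32.2 and 33.4 FPKM in *RRM2*-OE-TPC-1 (ENSG00000176171, chromosome 10 from 131966455 to 131982013). Its log2 fold change of 0.99 (SE 0.0375, adjusted p = 3.06e-07) lay just under the threshold for a call, and 623 of the tested genes had a higher one. It was called when TPC-1 replicate 3 (1.01) or *RRM2*-OE replicate 2 (1.00) was left out. The table names 39 pseudogenes of *BNIP3* with a summed mean of 2.12 FPKM. *NDRG1*, a stress-responsive gene linked to differentiation, measured 8.39, 8.51 and 8.41 FPKM against 11.5, 11.8 and 12.5 FPKM, a log2 fold change of 0.49 (SE 0.0459, adjusted p = 3.14e-05). *EGLN1*, the main prolyl hydroxylase that marks HIF alpha, measured 13.7, 13.7 and 13.2 FPKM against 15.3, 15.1 and 15.2 FPKM, a log2 fold change of 0.17 (SE 0.0364, adjusted p = 0.00332).

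The other targets were low or variable. *ADM*, which encodes the vasodilator adrenomedullin, measured 3.17, 2.17 and 3.19 FPKM in TPC-1 and 2.70, 2.94 and 2.31 FPKM in *RRM2*-OE-TPC-1. TPC-1 replicate 2 was the lowest of all 6 libraries, and the interval of the log2 fold change ran from -0.45 to 0.29 (adjusted p = 0.662). *ANKRD37* measured 0.674, 0.830 and 0.803 FPKM against 0.751, 0.385 and 0.389 FPKM, so that *RRM2*-OE replicate 1 lay among the TPC-1 libraries, and the log2 fold change of -0.56 (SE 0.244) did not pass (adjusted p = 0.0718). Without that library it was -0.83 and passed (adjusted p = 0.00560). Of its exonic bases 35.2% lie opposite *UFSP2* (mean 6.08 FPKM), so that its level is uncertain.

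*CA9* and *EGLN3*, which are strongly induced by hypoxia in many cell types, were close to absent from both groups. *CA9*, the carbonic anhydrase often used as a marker of tumor hypoxia, had 0, 0 and 1 recovered reads in TPC-1 and 0, 1 and 3 in *RRM2*-OE-TPC-1. *EGLN3*, a prolyl hydroxylase like *EGLN1*, had 3, 4 and 7 reads against 3, 3 and 9. No difference was detectable at this depth for either gene.

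The enzymes were then set beside the HIF targets that lie outside the pathway. The median log2 fold change was 0.44 for the 16 tested enzymes and -0.08 for the 7 tested targets, a difference of 0.52, and it lay between 0.41 and 0.66 under the 15 alternatives tried. Measured library by library as the median log2 deviation from the TPC-1 mean, the enzymes minus the targets gave 0.021, -0.040 and -0.031 in TPC-1 and 0.47, 0.32 and 0.73 in *RRM2*-OE-TPC-1. The summed FPKM of the 17 enzymes went from 2816 ± 70.3 to 3371 ± 8.81, and that of the 9 targets from 91.5 ± 1.06 to 72.7 ± 0.956 (SD, n = 3). The lower sum of the targets came from *VEGFA* (34.99 to 7.22 FPKM) and *CA12* (14.4 to 2.13 FPKM), while *BNIP3*, *NDRG1* and *EGLN1* rose. With so few targets the median rests on a single gene, and its sign changed under 4 of the alternatives. A longer list of other hypoxia-inducible genes, described below, had a median of 0.24 over 31 tested genes. The size of the contrast thus depends on which targets are taken.

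**Figure D5:**
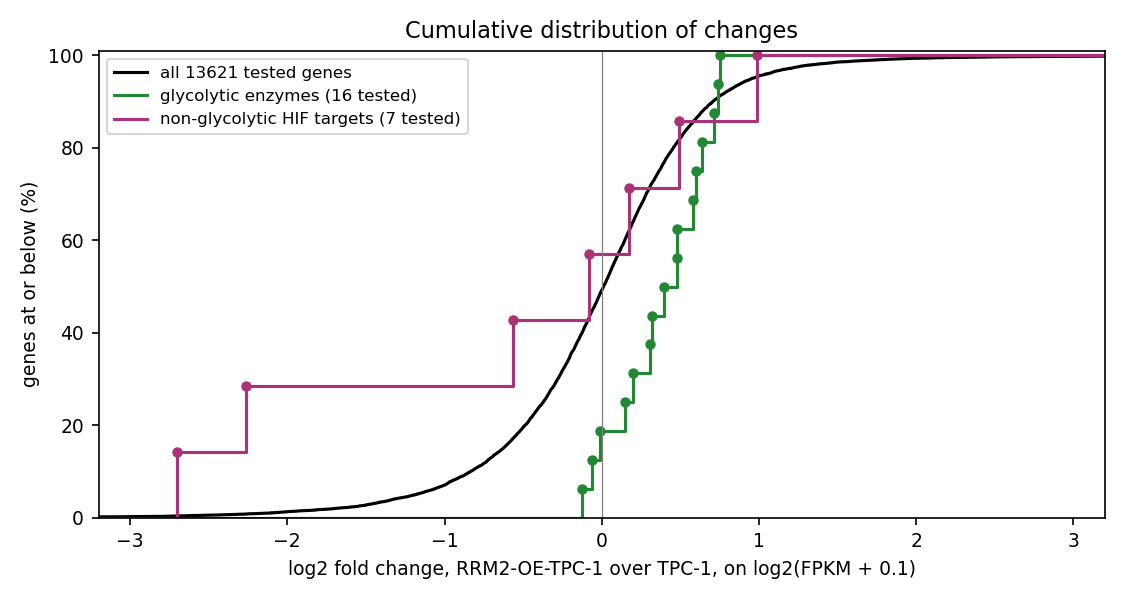
Cumulative share of genes, in percent, at or below each log2 fold change of *RRM2*-OE-TPC-1 over TPC-1, for all 13621 tested genes (black line), the 16 tested glycolytic enzymes and the 7 tested non-glycolytic HIF targets (points). The enzymes rise steeply between -0.13 and 0.75, and the targets run from -2.70 to 0.99. The quartiles were -1.41 and 0.33 for the 7 targets and -0.37 and 0.36 for all genes.

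Further genes of the same pathways came from lists that hold none of the 35. Counts for all of these lists are read against all tested genes, of which 34.9% rose and 32.7% fell. Of all tested genes 4.48% were called higher and 6.97% lower, so that changes in both directions are common here. Among 35 other hypoxia-inducible genes, 31 were tested, 17 rose and 10 fell, 4 were called higher and 3 lower, and the median was 0.24. *DDIT4*, which restrains mTORC1 under stress, measured 310.2, 272 and 309 FPKM in TPC-1 and 29.2, 29.2 and 26.5 FPKM in *RRM2*-OE-TPC-1 (log2 fold change -3.39, SE 0.0619, adjusted p = 1.11e-08). *HMOX1*, which degrades heme, went from 14.1 ± 0.454 to 37.8 ± 0.432 FPKM (1.42, adjusted p = 5.43e-08). The called genes of this list thus lay in both directions.

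Upstream and side branches of glycolysis were mixed as well. Of 18 other glycolytic isozymes and related enzymes 8 were tested, and the rest were at or near 0. *LDHD*, which oxidizes D-lactate, was called lower (0.703 ± 0.0736 to 0.145 ± 0.0628 FPKM, log2 fold change -1.74, adjusted p = 0.00036), while *TIGAR*, which lowers fructose 2,6-bisphosphate (0.373 ± 0.0609 to 0.938 ± 0.0275 FPKM, 1.14, adjusted p = 0.00036), and *PGM2*, a phosphoglucomutase (5.66 ± 0.362 to 11.96 ± 0.737 FPKM, 1.07, adjusted p = 3.31e-06), were called higher. *LDHD* entered the test through TPC-1 alone and *TIGAR* through *RRM2*-OE-TPC-1 alone, the group in which each was higher, so that each had to differ. Of 13 transporters of glucose and lactate and their partners, 11 were tested, 4 rose and 4 fell, and *SLC2A10* was called (6.43 ± 0.146 to 2.08 ± 0.324 FPKM, -1.59, adjusted p = 5.24e-06). Chosen after its values were seen, *SLC2A1*, the glucose transporter GLUT1 and a HIF target, rose from 25.9 ± 1.59 to 35.5 ± 1.41 FPKM (0.45, adjusted p = 0.000103).

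Enzymes downstream of pyruvate mostly rose by small steps, like those of glycolysis. All 27 genes of pyruvate entry and the citrate cycle were tested, 18 rose, 4 fell and none was called, with a median of 0.25. The pentose phosphate pathway, which branches off at glucose 6-phosphate and yields NADPH and ribose, had 8 of 9 genes tested, of which 3 rose and 4 fell, with a median of -0.21. *H6PD*, its enzyme in the endoplasmic reticulum, was called lower (14.7 ± 0.606 to 5.62 ± 0.123 FPKM, -1.37, adjusted p = 2.20e-07). Of 6 gluconeogenic genes 2 were tested, and *PCK2*, the mitochondrial PEP carboxykinase, measured 58.2, 54.5 and 59.0 FPKM in TPC-1 against 8.04, 8.39 and 7.67 FPKM (-2.82, SE 0.0477, adjusted p = 1.02e-08).

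The machinery that controls HIF was split. Of 14 genes 13 were tested, 6 rose, 5 fell and none was called, with a median of 0.18. Named after their values were seen, *VHL*, which binds hydroxylated HIF alpha, fell from 27.6 ± 0.201 to 17.2 ± 0.377 FPKM (-0.68, adjusted p = 1.11e-06), and *ARNT*, a beta subunit of HIF, fell from 14.5 ± 0.826 to 10.1 ± 0.207 FPKM (-0.52, adjusted p = 3.93e-05). Among those that rose, *ELOC*, a subunit of the VHL complex, went from 16.8 ± 0.474 to 26.7 ± 0.484 FPKM (0.67, adjusted p = 1.86e-06), and *ARNT2*, another beta subunit, from 0.521 ± 0.0349 to 0.989 ± 0.267 FPKM (0.78, adjusted p = 0.00910).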

How the data were processed

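RNA was sequenced from 3 wild strain TPC-1 and 3 *RRM2*-OE-TPC-1 libraries. The authors trimmed the reads with fastp, aligned them with HISAT2 2.0.5 and counted them with featureCounts 1.5.0. They deposited FPKM values, that is counts divided by gene length and a depth factor. The submitters' processing notes name GRCh38.p14 and DESeq2 1.20.0, and the identifiers and positions of the 58735 genes match GENCODE 29. For the library preparation the methods state poly(A) selection, but the labels state rRNA removal followed by RNase R. RNase R would change which transcripts are seen, and both groups have the same protocol. Whether strand was used in counting is not given in the sources used here. From FPKM times gene length, whole reads were recovered for 100.0% of values within 0.01 reads.

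Values were tested as log2(FPKM + 0.1) with limma 3.58.1 in R 4.3.3 (lmFit, and eBayes with a variance trend) and Benjamini-Hochberg adjustment over the 13621 genes with at least 0.5 FPKM and 10 reads in at least 3 libraries. Fold changes on this scale understate those of low genes, and intervals are 95% intervals from limma. Tables and figures were made in Python 3.11.15 (pandas 2.3.3, numpy 2.4.6, matplotlib 3.10.9). The 35 genes and all lists were chosen with earlier results of these data known, so no list was tested as a set. Named are the 35 genes, *RRM2*, the cell type markers, and up to 3 genes per further list with the largest change among those called. Any other gene is said to have been chosen after its values were seen. A gene that this rule covers is not reported here. The 15 alternatives were no filter, the FPKM minimum alone, pseudocounts of 1 and 0.01, scaling to library totals and by median-of-ratios, voom on recovered reads, a replicate block, protein-coding genes only, and each library left out. Scaling by median-of-ratios nearly repeats the main fit, because the deposited values already followed such factors. P-values measure the spread between the 3 libraries of a group, which the methods call biological triplicates. Recovered reads carry counting error beside this spread.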

Additional observations from a re-analysis of the deposited data

How the results depend on the processing

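Over the 31 tested genes and 15 alternatives, 446 of 465 log2 fold changes kept their direction and their side of the adjusted p of 0.05 in limma, 9 passed the threshold only under the alternative, 3 lost it and 7 changed sign, and 21 genes kept direction and side under all 15. With a pseudocount of 1, 716 genes of the whole table were called against 1560. With no filter 2281 of 30958 genes were called, 1 switch (*PDK4*) was called against 0, and the median of the non-glycolytic HIF targets was 0.031. With each library left out in turn, 2 to 3 of these targets were called, and 1 to 2 HIF alpha subunits passed the adjusted p. That median, which is the value of *ADM* in several of these fits, ranged from -0.26 to 0.0089 and was above 0 without TPC-1 replicate 1 (0.0046), TPC-1 replicate 3 (0.0070) or *RRM2*-OE replicate 3 (0.0089), and *ADM* itself had the same range. *PFKM* ranged from -0.034 to 0.010, above 0 without TPC-1 replicate 1 (0.010) or *RRM2*-OE replicate 1 (0.00081). *PFKFB2* ranged from -0.035 to 0.095, below 0 without TPC-1 replicate 3 (-0.035) and also with library totals (-0.030). The cause was not tested. Same-numbered libraries did not deviate together (correlations of -0.011, -0.0060 and -0.055) and none correlated best with its own number. No pairing by number was thus seen, but whether libraries were paired in culture or preparation was not tested. With a replicate block 1566 genes were called and 8934 passed the adjusted p, against 1560 and 9207, and none of the 31 genes changed its call. The minimums on FPKM and reads leave *ALDOC*, *PDK4*, *CA9* and *EGLN3* untested.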
